A study of Mus musculus with 110 samples.

Results

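Livers of mice fed a methionine-restricted diet at room temperature (MetR_RT, 7 libraries) were compared with livers of mice fed the control diet at the same temperature (Ctrl_RT, 7 libraries). These are 14 of the 28 liver libraries and of the 110 libraries of the series, chosen by the group that their titles name. All mice were wild-type C57BL/6N males of 16 weeks, housed singly at 22 °C, and every library came from the whole liver of a separate mouse. Both diets lacked cysteine (0%). Methionine made up 0.86% of the control diet and 0.12% of the restricted diet, and each was fed for 7 days. The control share is that of the series' design text, and the study's methods give a slightly lower one. No group carried a genetic change, and the model is limited to males of a single strain. The series also holds livers of mice on either diet after 24 h at 4 °C (Ctrl_CE and MetR_CE, 7 libraries each) and 3 fat depots, and it asks how the diet and cold act on energy metabolism.

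Methionine is an essential amino acid that the liver converts to S-adenosylmethionine, the methyl donor of the cell, and then through homocysteine to cysteine, glutathione and taurine. Amino acid shortage is sensed by the kinase GCN2, which slows translation and favours translation of ATF4, a transcription factor for amino acid synthesis, transport and tRNA charging genes. The liver also makes most plasma proteins, among them acute phase and complement proteins, and many of its genes differ between males and females under the control of growth hormone pulses.

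Libraries held 12601244 to 16512194 counts in Ctrl_RT and 6987895 to 33444374 in MetR_RT, where the shallowest library was replicate 1 and the deepest replicate 7. Replicates of a group correlated with r from 0.973 to 0.991 on the log2 scale. Library numbers ran in group order, so an effect of that order and the diet cannot be told apart. The 10 most abundant genes took 16.3 to 20.4% of the counts in Ctrl_RT and 13.5 to 16.1% in MetR_RT. Mitochondrially encoded genes took 3.21 to 4.17% of the counts and 2.91 to 4.01%. Summed levels of 10 hepatocyte markers, 2 of them called down, were 100224 to 133688 CPM (counts scaled to a common library size, after trimmed-mean normalization) and 84598 to 110142 CPM, so both groups carried the transcripts that define liver. In these bulk libraries, fewer cells of a type and less RNA per cell cannot be told apart.

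Methionine restriction raised 638 genes and lowered 891 of the 22143 tested, at an adjusted p under 0.05 and a change of at least 1.5-fold. The share called was 6.91% in either direction, 2.88% up and 4.02% down. Adjusted p values are Benjamini-Hochberg values of edgeR's quasi-likelihood test across all tested genes, and errors of log2 fold changes are standard errors (SE). Over all tested genes the log2 fold change had a median of 0.0045 and was positive for 11193. An adjusted p under 0.05, at any fold, was held by 4157, of which 1529 were called. Where a gene is said to have risen or fallen below, it passed both thresholds. Among genes of at least 1 CPM on average, 484 rose and 621 fell, and 33 rose and 77 fell by at least 4-fold. All 7 MetR_RT libraries stood above all 7 Ctrl_RT libraries for 662 genes (2.99% of those tested) and below them for 557 (2.52%). A test of whether the change exceeds 1.5-fold, rather than 0, called 124 genes up and 195 down.

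**Figure D1:**
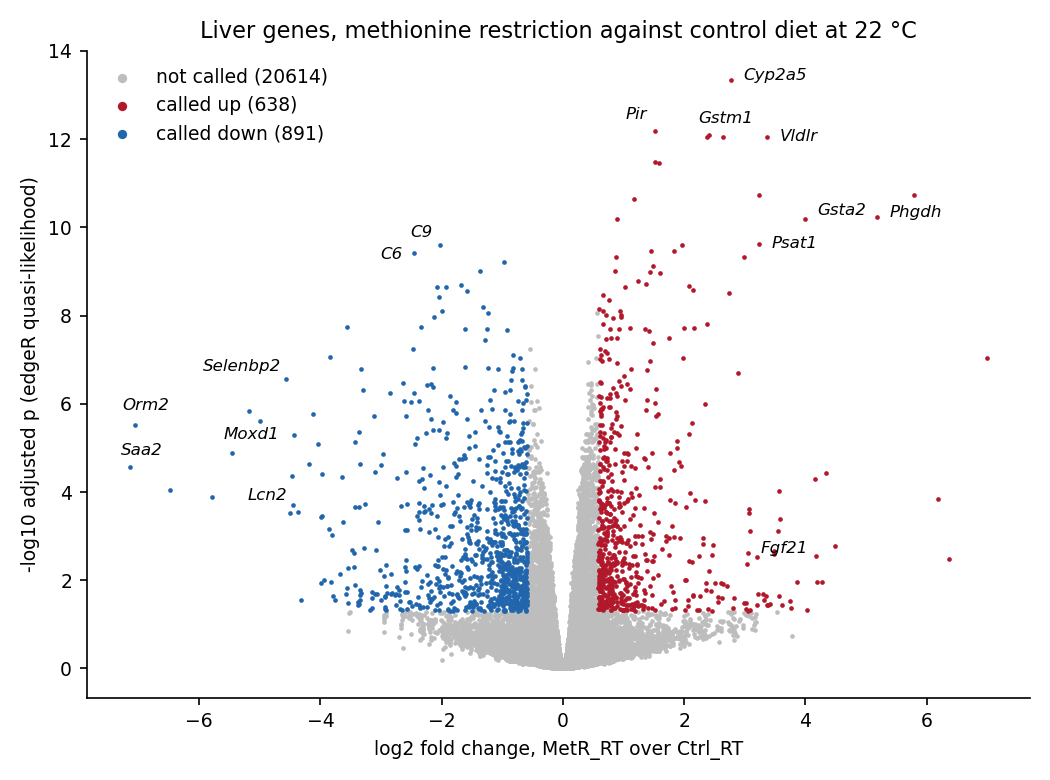
Each point is a gene, with its log2 fold change of MetR_RT over Ctrl_RT on the horizontal axis and −log10 of the edgeR adjusted p on the vertical axis. Red marks the 638 genes called up, blue the 891 called down and grey the others. Cyp2a5 has the smallest p, and Saa2 and Orm2 lie at the far left.

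The steepest rises by size were those of Phgdh, Gsta2, Vldlr, Psat1, Fgf21 and Gstm3, and the steepest falls those of Saa2, Orm2, Prtn3, Saa1, Moxd1 and Selenbp2, among named genes with a mean of at least 5 CPM. By the smallest p, Cyp2a5, Pir and Gstm2 led the rises, and C9, C6 and Apon led the falls. Of the 6 largest rises, Phgdh and Psat1 make serine, Gsta2 and Gstm3 are glutathione transferases, and Vldlr and Fgf21 respond to amino acid shortage. Of the 6 largest falls, Saa2, Orm2 and Saa1 are acute phase genes, Moxd1 and Selenbp2 are male-biased, and Prtn3 encodes a granule protease of neutrophils. Genes of 28 lists, drawn up by pathway or cell function, are described below, and the share of a list called is to be read against the 2.88% of all genes called up and 4.02% called down.

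**Figure D2:**
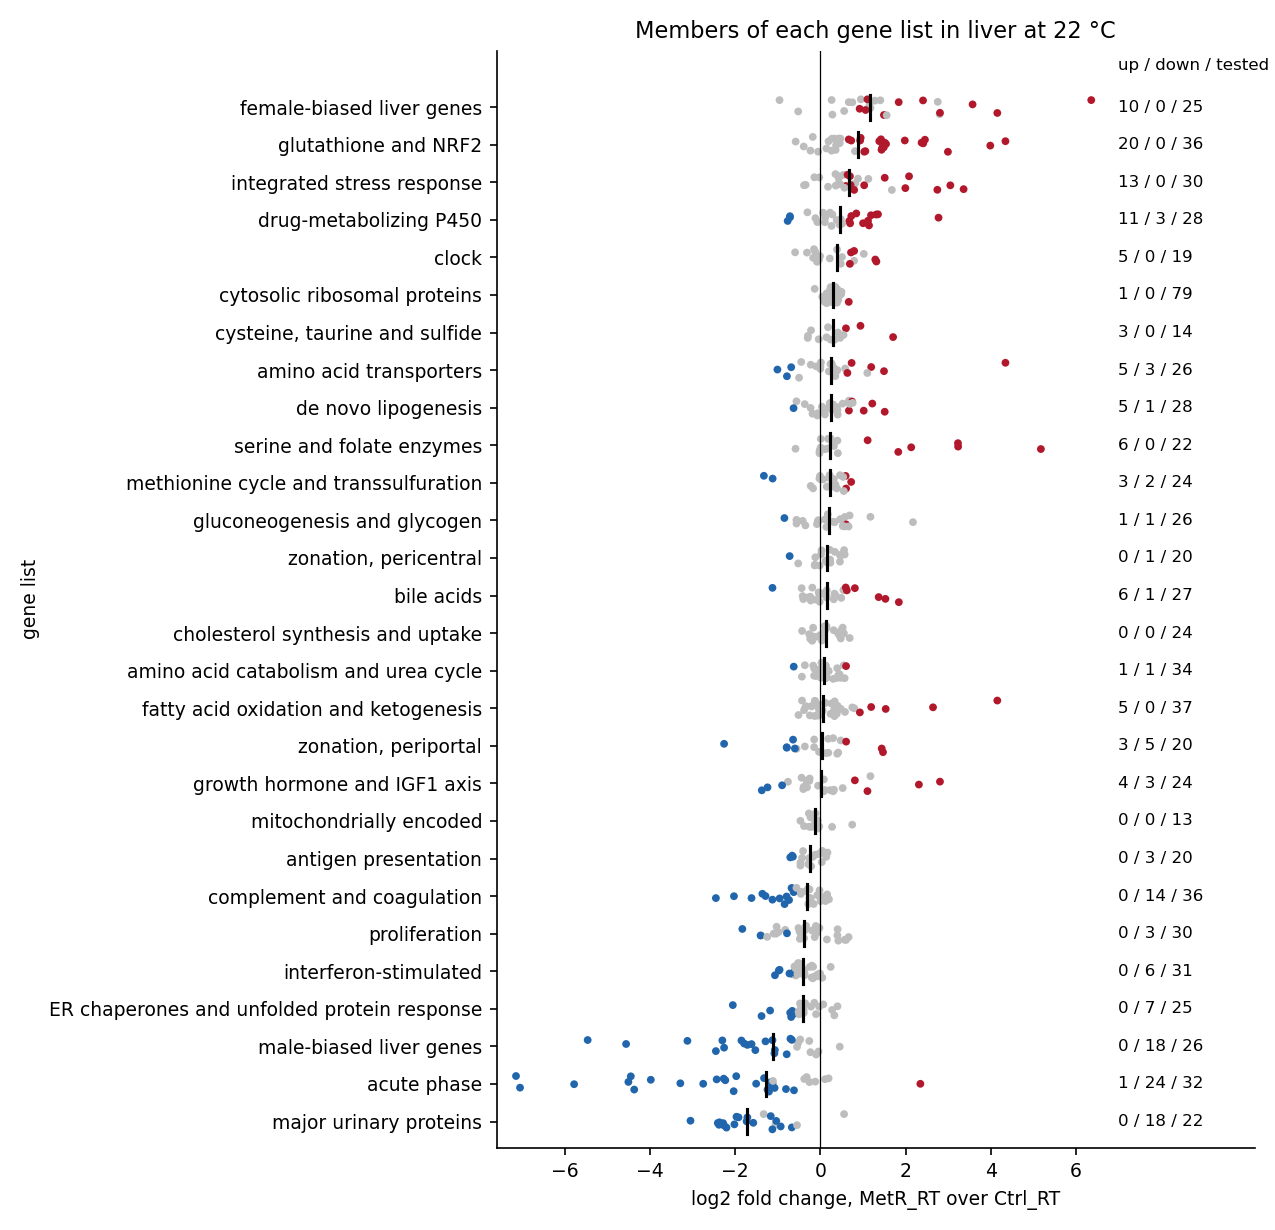
Each point is a tested member of a gene list, placed by its log2 fold change of MetR_RT over Ctrl_RT. Red marks members called up, blue members called down, grey the rest, and the black bar the median. At the right stand the numbers called up, called down and tested, from 10, 0 and 25 for female-biased liver genes at the top to 0, 18 and 22 for major urinary proteins at the bottom.

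Genes of the integrated stress response, the programme that ATF4 drives, were called in MetR_RT upward only. Of 30 members tested, 13 were called up and 0 down (43.3% up, against 2.88% of all genes), and the median log2 fold change was 0.67. Asns, which makes asparagine, ran from 23.2 to 44.2 CPM in Ctrl_RT (median 30.6) and from 82.5 to 180.3 CPM in MetR_RT (median 134). The groups did not overlap, and the log2 fold change was 2.00 ± 0.20 (SE, adjusted p = 1.88e-08). Pck2, the mitochondrial form of phosphoenolpyruvate carboxykinase, ran from 3.51 to 5.19 CPM and from 12 to 51.7 CPM (medians 4.17 and 27.8), again without overlap. Its log2 fold change was 2.75 ± 0.25 (adjusted p = 3.15e-09). Vldlr, the receptor for very low density lipoprotein, stood at 0.58 to 1.66 CPM in Ctrl_RT (median 0.896) and 5.83 to 12.9 CPM in MetR_RT (median 10.5), a rise of 10.3-fold (log2 fold change 3.36 ± 0.21, adjusted p = 8.8e-13). Nupr1, a stress-induced chromatin protein, rose by 2.08 ± 0.19 (log2), and Gars, the glycyl-tRNA synthetase, by 1.03 ± 0.09, both without overlap of the groups.

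Fgf21, the liver hormone that rises under protein and amino acid shortage, was the most variable of these. It ran from 1.24 to 11.7 CPM in Ctrl_RT (median 2.99) and from 3.57 to 130.2 CPM in MetR_RT (median 30.6). The lowest MetR_RT libraries lay among the Ctrl_RT libraries, and the log2 fold change was 3.05 ± 0.71 (adjusted p = 0.00247), or 2.44 without MetR_RT replicate 6. Transcripts of Atf4 itself ran from 95 to 115 CPM and from 128 to 178 CPM. These groups did not overlap, but the log2 fold change of 0.54 ± 0.10 (adjusted p = 0.000299) stayed under the 1.5-fold limit. Atf3, another factor of the same family, had a log2 fold change of -0.14 ± 0.37 (adjusted p = 0.851).

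Promoters of the 5 members called up with the smallest p among those that hold a C/EBP-ATF core are printed here, because ATF4 binds such elements. The motif searched was TGATGNAA on both strands. Windows reach from 250 bases before to 50 after the start of the gene in RefSeq (GRCm38.p6): Vldlr at chr19:27216770-27217069 on the plus strand, Nupr1 at chr7:126625421-126625720 on the minus strand, Gars at chr6:55037751-55038050 on the plus strand, Pck2 at chr14:55540016-55540315 on the plus strand and Asns at chr6:7693160-7693459 on the minus strand. Each is written 5′ to 3′ along its gene, with the match in capitals.

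Vldlr: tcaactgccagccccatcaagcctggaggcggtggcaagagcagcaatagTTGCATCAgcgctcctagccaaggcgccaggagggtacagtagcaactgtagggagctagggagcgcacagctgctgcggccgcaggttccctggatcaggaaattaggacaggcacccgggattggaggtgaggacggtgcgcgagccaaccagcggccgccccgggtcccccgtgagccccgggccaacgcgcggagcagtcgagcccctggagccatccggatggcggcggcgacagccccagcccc
Nupr1: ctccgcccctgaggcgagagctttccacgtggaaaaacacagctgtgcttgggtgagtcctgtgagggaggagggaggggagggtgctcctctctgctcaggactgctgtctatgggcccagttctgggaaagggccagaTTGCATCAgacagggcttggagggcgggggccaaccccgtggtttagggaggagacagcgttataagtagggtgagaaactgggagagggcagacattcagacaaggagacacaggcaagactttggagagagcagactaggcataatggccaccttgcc
Gars: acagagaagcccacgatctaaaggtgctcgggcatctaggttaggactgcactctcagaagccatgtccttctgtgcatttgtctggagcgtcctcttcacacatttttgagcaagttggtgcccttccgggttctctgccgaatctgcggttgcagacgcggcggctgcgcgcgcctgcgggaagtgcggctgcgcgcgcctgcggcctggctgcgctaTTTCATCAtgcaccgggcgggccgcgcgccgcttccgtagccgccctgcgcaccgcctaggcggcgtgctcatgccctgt
Pck2: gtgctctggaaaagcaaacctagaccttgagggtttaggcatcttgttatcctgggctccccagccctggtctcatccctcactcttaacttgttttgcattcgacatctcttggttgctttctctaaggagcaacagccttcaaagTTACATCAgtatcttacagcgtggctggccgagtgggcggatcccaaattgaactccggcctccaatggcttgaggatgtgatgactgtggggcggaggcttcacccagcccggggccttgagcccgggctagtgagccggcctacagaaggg
Asns: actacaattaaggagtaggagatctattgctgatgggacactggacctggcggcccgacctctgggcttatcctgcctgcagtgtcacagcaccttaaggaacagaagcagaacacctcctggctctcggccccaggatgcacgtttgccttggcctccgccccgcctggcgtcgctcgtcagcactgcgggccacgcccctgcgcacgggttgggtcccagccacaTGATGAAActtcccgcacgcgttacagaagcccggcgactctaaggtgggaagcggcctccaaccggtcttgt

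The match lay 200 bases before the start site in Vldlr, 110 in Nupr1, 30 in Gars, 103 in Pck2 and 23 in Asns. The motif was on the strand of the gene in Asns and on the opposite strand in the other 4. It stood in 447 of 16663 windows of tested genes (2.68%), in 43 of 580 windows of genes called up (7.41%) and in 20 of 705 windows of genes called down (2.84%). Among the members of the integrated stress response called up, 7 of 14 windows held it. None of the 6 windows of serine and folate enzymes called up did (0 of 6). Several genes have more than 1 window, windows of a gene can overlap, and a match is a match of letters only.

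The enzymes of serine synthesis and some mitochondrial folate enzymes rose. Of 22 serine and folate genes tested, 6 were called up, 0 down and 16 neither (27.3% up), with a median log2 fold change of 0.24, and the called members kept their calls when each of the 14 libraries was left out in turn. Phgdh, the enzyme at the entry of serine synthesis, ran from 0.0623 to 0.708 CPM in Ctrl_RT (median 0.387) and from 4.66 to 20.2 CPM in MetR_RT (median 12.3). That is a change from near the limit of detection, with no overlap, of 36.2-fold (log2 fold change 5.18 ± 0.39, adjusted p = 5.66e-11). Psat1, which acts next in the pathway, ran from 2.07 to 16 CPM (median 8.91) and from 49.8 to 97.4 CPM (median 88.7), a log2 fold change of 3.23 ± 0.26 (adjusted p = 2.35e-10). Psph, which releases serine, changed less: its medians were 8.72 and 20.2 CPM and its log2 fold change 1.11 ± 0.13.

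The folate enzymes that rose act in mitochondria. Aldh1l2, which oxidizes formyl-tetrahydrofolate there, went from a median of 0.499 CPM (0.39 to 1.26) to 6.15 CPM (4.04 to 8.15), a log2 fold change of 3.23 ± 0.23 (adjusted p = 1.86e-11). Mthfd2, a mitochondrial dehydrogenase and cyclohydrolase, went from a median of 9.51 to 48.0 CPM (2.13 ± 0.29, adjusted p = 2.78e-06). Neither pair of groups overlapped. The serine hydroxymethyltransferases, which pass carbon from serine to folate, were not called. Shmt1 of the cytosol had a log2 fold change of 0.24 ± 0.10 (adjusted p = 0.0922), and Shmt2 of mitochondria 0.24 ± 0.07 (adjusted p = 0.0119).

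The methionine cycle itself moved less, and in both directions. Of 24 genes tested, 3 rose and 2 fell (12.5% and 8.33%). Bhmt, which remakes methionine from homocysteine with betaine, fell from 1337 to 3016 CPM (median 2009) in Ctrl_RT to 581 to 1328 CPM (median 935) in MetR_RT. The highest MetR_RT library lay just under the lowest Ctrl_RT library, and the log2 fold change was -1.12 ± 0.18 (adjusted p = 3.28e-05). Nnmt, which spends S-adenosylmethionine to methylate nicotinamide, fell from a median of 180.2 to 69.1 CPM (-1.33 ± 0.22, adjusted p = 7.13e-05), without overlap. Cth, which makes cysteine from cystathionine, rose from a median of 251 to 435 CPM (0.72 ± 0.14, adjusted p = 0.000301).

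Gnmt and Mat1a, the glycine methyltransferase and the adult liver's S-adenosylmethionine synthetase, were at the edge of the fold limit. Gnmt had a log2 fold change of 0.60 ± 0.11 (adjusted p = 0.000163), and it went below 1.5-fold without Ctrl_RT replicate 4 (0.58), 6 (0.58) or 7 (0.53), or MetR_RT replicate 4 (0.55) or 5 (0.57). Mat1a had 0.59 ± 0.16 (adjusted p = 0.00821). It went below 1.5-fold without Ctrl_RT replicate 1 (0.55), 3 (0.53), 4 (0.53) or 7 (0.49), or MetR_RT replicate 3 (0.56), 4 (0.57), 5 (0.57) or 6 (0.58). Mat2a and Mat2b, the subunits of the other synthetase, were higher in every MetR_RT library than in any Ctrl_RT library but under 1.5-fold, at 0.54 ± 0.08 (adjusted p = 1.01e-05) and 0.35 ± 0.06 (adjusted p = 3.59e-05).

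Downstream of cysteine, 3 of 14 genes for taurine, sulfide and related steps rose and 0 fell (21.4% up). Csad, the decarboxylase of taurine synthesis, went from 60.6 to 183 CPM (median 119) to 312 to 447 CPM (median 406). The groups stood well apart, at a log2 fold change of 1.71 ± 0.36 (adjusted p = 0.00102). Fmo1, a flavin monooxygenase that oxidizes sulfur compounds, rose by 0.94 ± 0.09 (adjusted p = 7.89e-09). Cdo1, the dioxygenase that commits cysteine to taurine, was not called, at 0.41 ± 0.11 (adjusted p = 0.0075).

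**Figure D3:**
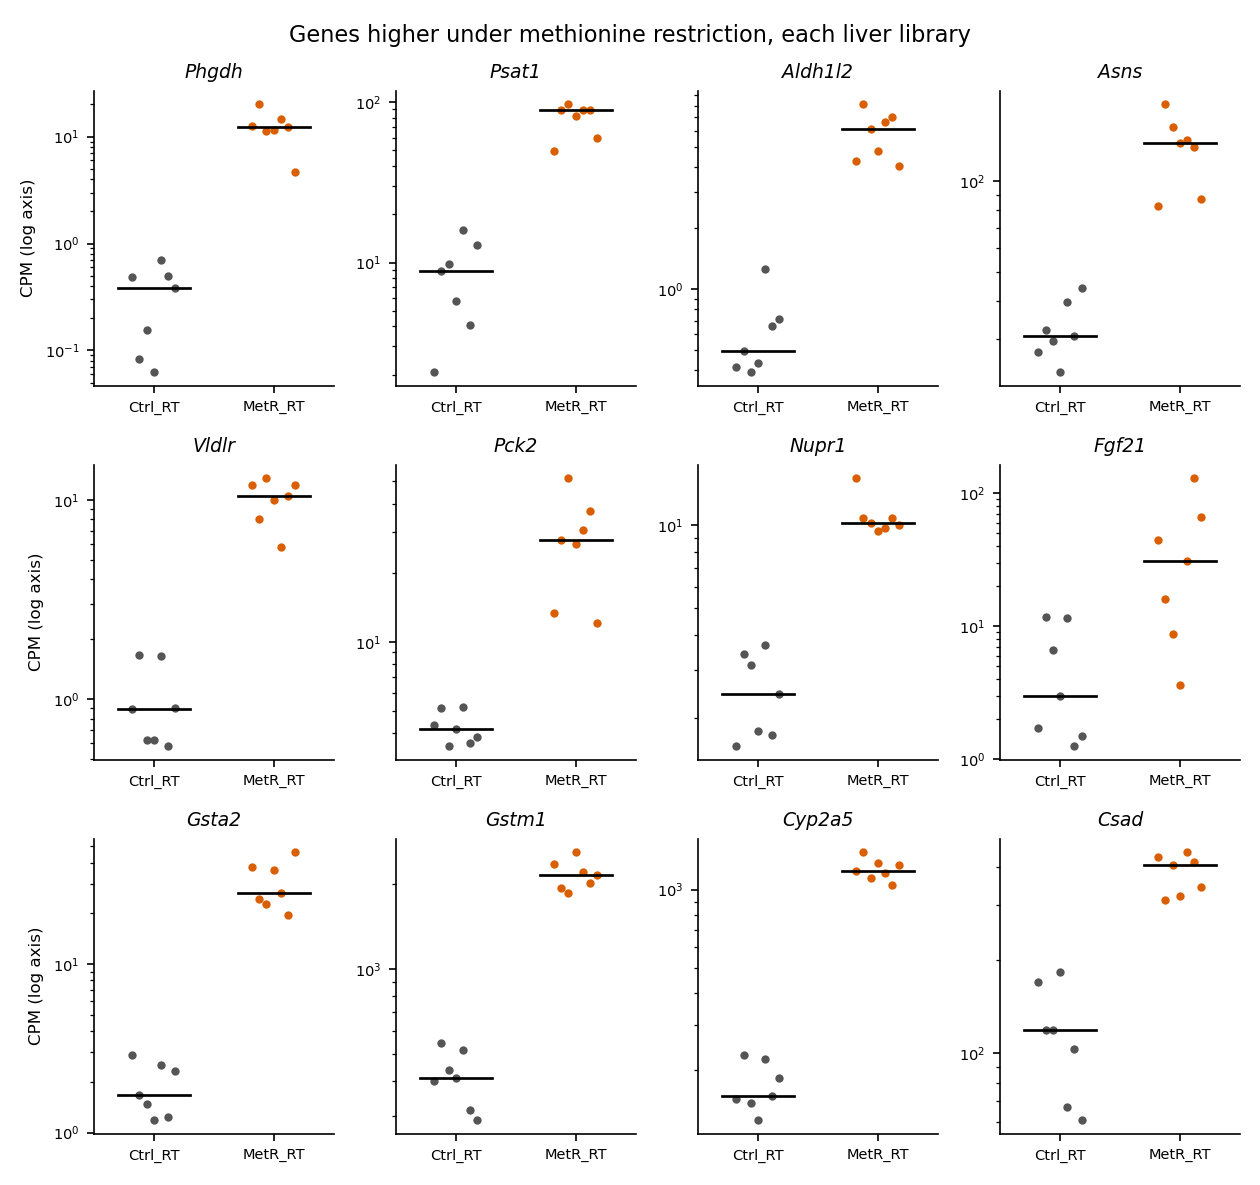
Normalized CPM of 12 genes in each of the 7 Ctrl_RT libraries (grey) and 7 MetR_RT libraries (orange), on log axes that do not start at 0, with the median as a bar. The groups overlap for Fgf21 and stand apart for the other 11 genes.

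Genes for glutathione use and other targets of NRF2, the transcription factor of the electrophile response, rose in the greatest number. Of 36 tested, 20 were called up and 0 down (55.6% up), with a median log2 fold change of 0.87. All 20 kept their calls when each of the 14 libraries was left out in turn. Gsta2, a glutathione transferase, ran from 1.18 to 2.89 CPM in Ctrl_RT (median 1.66) and from 19.6 to 46.3 CPM in MetR_RT (median 26.4), a rise of 15.9-fold (log2 fold change 3.99 ± 0.30, adjusted p = 6.36e-11). Gstm1, an abundant transferase, ran from 289 to 547 CPM (median 409) and from 1859 to 2600.3 CPM (median 2161). No library of either group came near the other, and its log2 fold change was 2.38 ± 0.15 (adjusted p = 9.14e-13). Gstm2 rose by 2.41 ± 0.15, Gstm3 by 2.99 ± 0.25 and Gstm4 by 1.51 ± 0.10. Transferase genes of a class are alike in sequence, so the split of reads among them is uncertain.

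Other oxidoreductase genes followed. Aox1, aldehyde oxidase, rose from a median of 75.2 to 204 CPM (1.45 ± 0.12, adjusted p = 3.47e-10). Pir, the iron protein pirin, ran from 11.3 to 18.5 CPM and from 39.6 to 45.8 CPM, with little spread among the MetR_RT libraries (1.52 ± 0.09, adjusted p = 6.55e-13). Of the enzymes that make glutathione, the catalytic subunit of glutamate-cysteine ligase was called up, while its regulatory subunit and glutathione synthetase moved less. Gclm, the regulatory subunit of glutamate-cysteine ligase, had 0.47 ± 0.06 (adjusted p = 3.36e-06), and Gss, glutathione synthetase, 0.33 ± 0.06 (adjusted p = 0.000315). Neither reached 1.5-fold, although both pairs of groups stood apart.

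The core of the antioxidant response element, TGACNNNGC, was searched in the same windows and on both strands. It differs from the C/EBP-ATF core in the fourth base, so the motifs cannot match at the same start on a strand. It stood in 2331 of 16663 windows (14%), in 96 of 580 windows of genes called up (16.6%) and in 74 of 705 of genes called down (10.5%). Of the windows of glutathione and NRF2 genes called up, 2 of 22 held it (9.09%). These are printed with the match in capitals, because they are the members called up whose promoter window holds the core (RefSeq, GRCm38.p6): Gsta3 at chr1:21240335-21240634 on the plus strand and Srxn1 at chr2:152105274-152105573 on the plus strand. Windows of members not called were not counted for this list.

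Gsta3: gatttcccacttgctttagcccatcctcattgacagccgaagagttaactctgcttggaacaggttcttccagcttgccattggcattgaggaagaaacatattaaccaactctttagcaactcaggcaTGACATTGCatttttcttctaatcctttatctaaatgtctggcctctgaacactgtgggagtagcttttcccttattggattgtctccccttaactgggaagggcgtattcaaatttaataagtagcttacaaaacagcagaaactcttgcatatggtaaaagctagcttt
Srxn1: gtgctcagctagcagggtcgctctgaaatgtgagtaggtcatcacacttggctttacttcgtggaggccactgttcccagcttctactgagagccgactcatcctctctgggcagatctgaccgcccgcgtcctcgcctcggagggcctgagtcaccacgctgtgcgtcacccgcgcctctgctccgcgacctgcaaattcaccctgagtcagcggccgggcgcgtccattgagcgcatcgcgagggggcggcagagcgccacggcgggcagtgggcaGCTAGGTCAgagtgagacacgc

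The match began 121 bases before the start site in Gsta3 and 28 bases after it in Srxn1. Gsta3, another transferase, rose from a median of 713 to 1632 CPM (1.06 ± 0.13, adjusted p = 3.61e-07). Srxn1, sulfiredoxin, rose from 45.3 to 77.4 CPM (0.72 ± 0.12, adjusted p = 3.23e-05), with overlap of the groups.

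Amino acid transporters were split, with 5 of 26 up and 3 down (19.2% and 11.5%). Slc3a2, the heavy chain that carries several transporters to the membrane, ran from 38.2 to 48.0 CPM and from 91.4 to 171 CPM, without overlap (1.49 ± 0.13, adjusted p = 7.57e-10). Slc7a11, the cystine-glutamate exchanger that pairs with it, was at 0 in 5 of the 7 Ctrl_RT libraries, with 4 reads in the group, and had 121 reads in MetR_RT, at 0.275 to 2.61 CPM. Every MetR_RT library held it, at a low level (adjusted p = 3.7e-05). Slc43a1, a transporter of large neutral amino acids, fell by 0.68 ± 0.16 (log2, adjusted p = 0.00209). Slc3a1, the partner of the cystine transporter of kidney, fell by 1.01 ± 0.26 (adjusted p = 0.00507). In amino acid breakdown and the urea cycle, 1 of 34 genes rose and 1 fell (2.94% each). Kmo, of tryptophan breakdown, was the gene that fell (-0.63 ± 0.07, adjusted p = 4.25e-07), and Cps1, at the entry of the urea cycle, was not called (0.40 ± 0.10, adjusted p = 0.00561).

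Several xenobiotic genes rose beside the transferases. Of 28 genes of drug-metabolizing P450 enzymes and their regulators, 11 were called up and 3 down (39.3% and 10.7%), with a median log2 fold change of 0.45. Cyp2a5, the coumarin hydroxylase, had the smallest p of all genes. It ran from 128 to 230.0 CPM in Ctrl_RT (median 159) and from 1044 to 1400.0 CPM in MetR_RT (median 1176), a rise of 6.84-fold (log2 fold change 2.77 ± 0.15, adjusted p = 4.59e-14). Its near-identical neighbour Cyp2a4 had 8 reads in Ctrl_RT and 140 in MetR_RT, and reads of the pair can be split wrongly. Nr1i3, the nuclear receptor CAR, which drives several of these genes, rose from a median of 36.1 to 96.5 CPM (1.12 ± 0.18, adjusted p = 2.61e-05). Cyp3a59 rose by 1.35 ± 0.21, Cyp2c37 by 1.14 ± 0.20 and Ugt1a1, the bilirubin glucuronosyltransferase, by 0.68 ± 0.10. Cyp1a2 stayed under the fold limit, at 0.46 ± 0.10 (adjusted p = 0.00146). The carboxylesterase Ces1b rose from a median of 24.0 to 145 CPM (2.64 ± 0.16, adjusted p = 8.8e-13), while Ces4a fell from 8.70 to 0.521 CPM (-3.55 ± 0.36, adjusted p = 1.79e-08).

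Of 27 bile acid genes, 6 rose and 1 fell (22.2% and 3.7%). The export pumps of the blood side rose: Abcc3 from a median of 115 to 277 CPM (1.37 ± 0.18, adjusted p = 1.38e-06) and Abcc4 from 1.57 to 4.51 CPM (1.53 ± 0.19, adjusted p = 9.52e-07), neither with overlap. An export pump of the bile side was called up too. Cyp7a1, the rate-limiting enzyme of bile acid synthesis, ran from 2.07 to 77 CPM in Ctrl_RT and from 16.5 to 51.2 CPM in MetR_RT, so the MetR_RT range lay within the Ctrl_RT range (-0.02 ± 0.55, adjusted p = 0.991). Cyp8b1, which sets the share of cholic acid, was likewise not called (-0.24 ± 0.37, adjusted p = 0.725).

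Lipid genes gave smaller counts. In de novo lipogenesis 5 of 28 rose and 1 fell (17.9% and 3.57%), and 2 of the 5 kept their call when each of the 14 libraries was left out in turn. Me1, malic enzyme, which supplies NADPH, ran from 122 to 408 CPM (median 141) and from 243 to 1066 CPM (median 479). Ctrl_RT replicate 5, at 408 CPM, stood within the MetR_RT range and the other 6 controls below it, and the log2 fold change was 1.51 ± 0.29 (adjusted p = 0.000295). Elovl6, a fatty acid elongase, rose by 1.22 ± 0.30 (adjusted p = 0.00419). Acaca, acetyl-CoA carboxylase, rose by 0.74 ± 0.22 (adjusted p = 0.015), a call lost without MetR_RT replicate 3 (0.52, adjusted p = 0.0744). Transcripts of the regulators were not called, with 0.04 ± 0.24 for Srebf1 (adjusted p = 0.949) and 0.22 ± 0.07 for Mlxipl (adjusted p = 0.0356). Of 24 cholesterol genes, 0 were called by edgeR, 3 had an adjusted p under 0.05 with a smaller fold, and DESeq2 called 1.

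In fatty acid oxidation and ketogenesis, 5 of 37 rose and 0 fell (13.5% up), while the median log2 fold change was 0.05. These were 3 acyl-CoA thioesterases (Acot2, Acot3 and Acot4), the fatty acid carrier Cd36 and the fatty acid hydroxylase Cyp4a14. Acot4 rose from a median of 18.8 to 75.4 CPM (1.53 ± 0.20, adjusted p = 1.86e-06), and Acot3 from 0.078 to 3.65 CPM (4.15 ± 0.69, adjusted p = 5.12e-05), with 27 reads in Ctrl_RT and 730 in MetR_RT. Without Ctrl_RT replicate 2 the value of Acot3 was 5.09 and that of Cyp4a14 3.27. Cd36 rose by 0.93 ± 0.17 and Acot2 by 1.19 ± 0.28. Cyp4a14 varied widely within both groups, from 7.49 to 219 CPM and from 27.2 to 1154 CPM (2.65 ± 0.76, adjusted p = 0.0124). Gluconeogenesis and glycogen genes held 1 rise and 1 fall among 26 (3.85% each), and Ldha, lactate dehydrogenase, was the fall (medians 1041 and 635 CPM, -0.84 ± 0.12, adjusted p = 1.08e-05).

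Acute phase genes, the plasma proteins that the liver makes under inflammatory signals, showed the steepest falls. Of 32 tested, 24 were called down and 1 up (75% down, against 4.02% of all genes), with a median log2 fold change of -1.28. Saa1, serum amyloid A, ran from 1759 to 8424 CPM in Ctrl_RT (median 2000.1) and from 9.08 to 385 CPM in MetR_RT (median 14.1). All 7 Ctrl_RT libraries stood above all MetR_RT libraries, and 6 of the 7 MetR_RT libraries lay far below replicate 5, which held the 385 CPM. The log2 fold change was -5.78 ± 1.03 (adjusted p = 0.000129), and -7.96 without that library. Saa2, its near-identical neighbour, fell from 1180.4 to 9274 CPM (median 1716) to 2.74 to 143 CPM (median 5.22), and how reads are split within the pair is uncertain (-7.15 ± 1.13, adjusted p = 2.78e-05, and -9.17 without MetR_RT replicate 5).

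Orm2, an orosomucoid, went from 100.4 to 1412 CPM (median 200.5) to 1.21 to 7.24 CPM (median 3.30), a log2 fold change of -7.05 ± 0.95 (adjusted p = 2.96e-06). Orm1 fell by 3.29 ± 0.40 and Orm3 by 4.37 ± 0.83 on the log2 scale, and the orosomucoid genes also share sequence. Lcn2, lipocalin of the innate iron response, ran from 180.1 to 1285 CPM (median 513) and from 3.02 to 99.2 CPM (median 17.8), without overlap (-4.51 ± 0.86, adjusted p = 0.000293, and -5.30 without MetR_RT replicate 5). Saa3 fell by 4.45 ± 0.82 (by 3.68 without Ctrl_RT replicate 1) and Saa4 by 2.23 ± 0.29. Serpina3k, an abundant serine protease inhibitor, fell from a median of 15609 to 5829 CPM (-1.32 ± 0.13, adjusted p = 6.26e-09). Mt2, a metallothionein, ran from 4.36 to 302 CPM in Ctrl_RT and from 3.07 to 10.9 CPM in MetR_RT, so the lowest control lay within the restricted range (-3.98 ± 1.13, adjusted p = 0.0118, and -3.33 without Ctrl_RT replicate 5).

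The member called up was Hamp2, related to the iron hormone hepcidin, which rose from a median of 2.45 to 14.2 CPM (2.35 ± 0.30, adjusted p = 9.97e-07). Of the other members, 7 were not called, and 3 of the 32 had positive values. The pentraxins Crp (-0.26 ± 0.15, adjusted p = 0.252) and Apcs (-0.32 ± 0.43, adjusted p = 0.68) were among the 7. The summed level of the list was 67858 to 133751 CPM in Ctrl_RT and 28965 to 38187 CPM in MetR_RT. Tff3, a secreted trefoil peptide, fell from a median of 17.2 to 1.22 CPM (-3.37 ± 0.47, adjusted p = 4.34e-06), and Prtn3, the serine protease proteinase 3, from 6.78 to 0.0521 CPM, with 3 of 7 MetR_RT libraries at 0 (-6.48 ± 1.12, adjusted p = 8.95e-05). Without MetR_RT replicate 2 these values were -4.0 for Tff3 and -8.04 for Prtn3, and without Ctrl_RT replicate 6 that of Prtn3 was -5.74.

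Markers of immune cells differed by cell type in the same libraries. All 12 markers of Kupffer cells, the resident macrophages, had negative log2 fold changes and 6 were called down. Their summed level was 375 to 512 CPM in Ctrl_RT and 184 to 337 CPM in MetR_RT, without overlap. Of 8 neutrophil markers 1 was called down (sums 2.71 to 11.2 and 2.42 to 3.29 CPM), and of 10 markers of monocytes and dendritic cells 1 was called down (36.7 to 76.8 and 19.6 to 45.0 CPM). No tested marker was at 0 in all 7 libraries of either group, and the neutrophil granule genes Ngp and Camp were at 0 in 6 of 7 MetR_RT libraries. Cholangiocyte markers summed to 46 to 319 CPM and 28 to 35.1 CPM, with 2 of 7 down. The 12 markers of liver endothelial cells all had positive log2 fold changes, with 3 called up (sums 270.0 to 356 and 368 to 453 CPM). Erythroid markers had 2 of 5 down. All 9 B and plasma cell markers had positive log2 fold changes, with 1 called up. Of 11 T and NK cell markers, 8 had positive values and 1 was called down. The part of these cell types in the acute phase result was not tested.

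Of 36 complement and coagulation genes, 14 were called down, 0 up and 22 neither (38.9% down), with a median log2 fold change of -0.31. The falls were largest among components of the terminal complex that forms pores in membranes. C9 ran from 710.3 to 1102 CPM (median 918) and from 138 to 312 CPM (median 211), C6 from 273 to 578 CPM (median 459) and from 45.8 to 108 CPM (median 80.6). These groups were far apart, at -2.03 ± 0.16 (adjusted p = 2.54e-10) and -2.45 ± 0.20 (adjusted p = 3.72e-10). C8a fell by 1.62 ± 0.16, C8b by 1.29 ± 0.13 and Hc, which encodes C5, by 1.36 ± 0.12 on the log2 scale. The proteases at the start of the classical pathway changed little. C1s1 had -0.29 ± 0.05 (adjusted p = 0.000189) and C1ra -0.25 ± 0.06 (adjusted p = 0.00287), both under the fold limit.

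Interferon-stimulated genes and antigen presentation moved the same way with smaller steps. Of 31 interferon-stimulated genes 6 fell and 0 rose (19.4% down), among them the GTPase Ifi47 (-1.07 ± 0.15, adjusted p = 8.66e-06), Oasl1 (-0.96 ± 0.16, adjusted p = 7.14e-05) and Ifit1 (-0.98 ± 0.22, adjusted p = 0.00211). In antigen presentation 3 of 20 fell (15.0%). They were the immunoproteasome subunits Psmb8 (-0.66 ± 0.08) and Psmb9 (-0.71 ± 0.10), and the peptide transporter Tap1 (-0.65 ± 0.09). Apon, an apolipoprotein of the plasma, fell from 509 to 682 CPM (median 542) to 279.9 to 309.6 CPM (median 287), with a narrow range in MetR_RT (-0.97 ± 0.08, adjusted p = 6.19e-10).

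**Figure D4:**
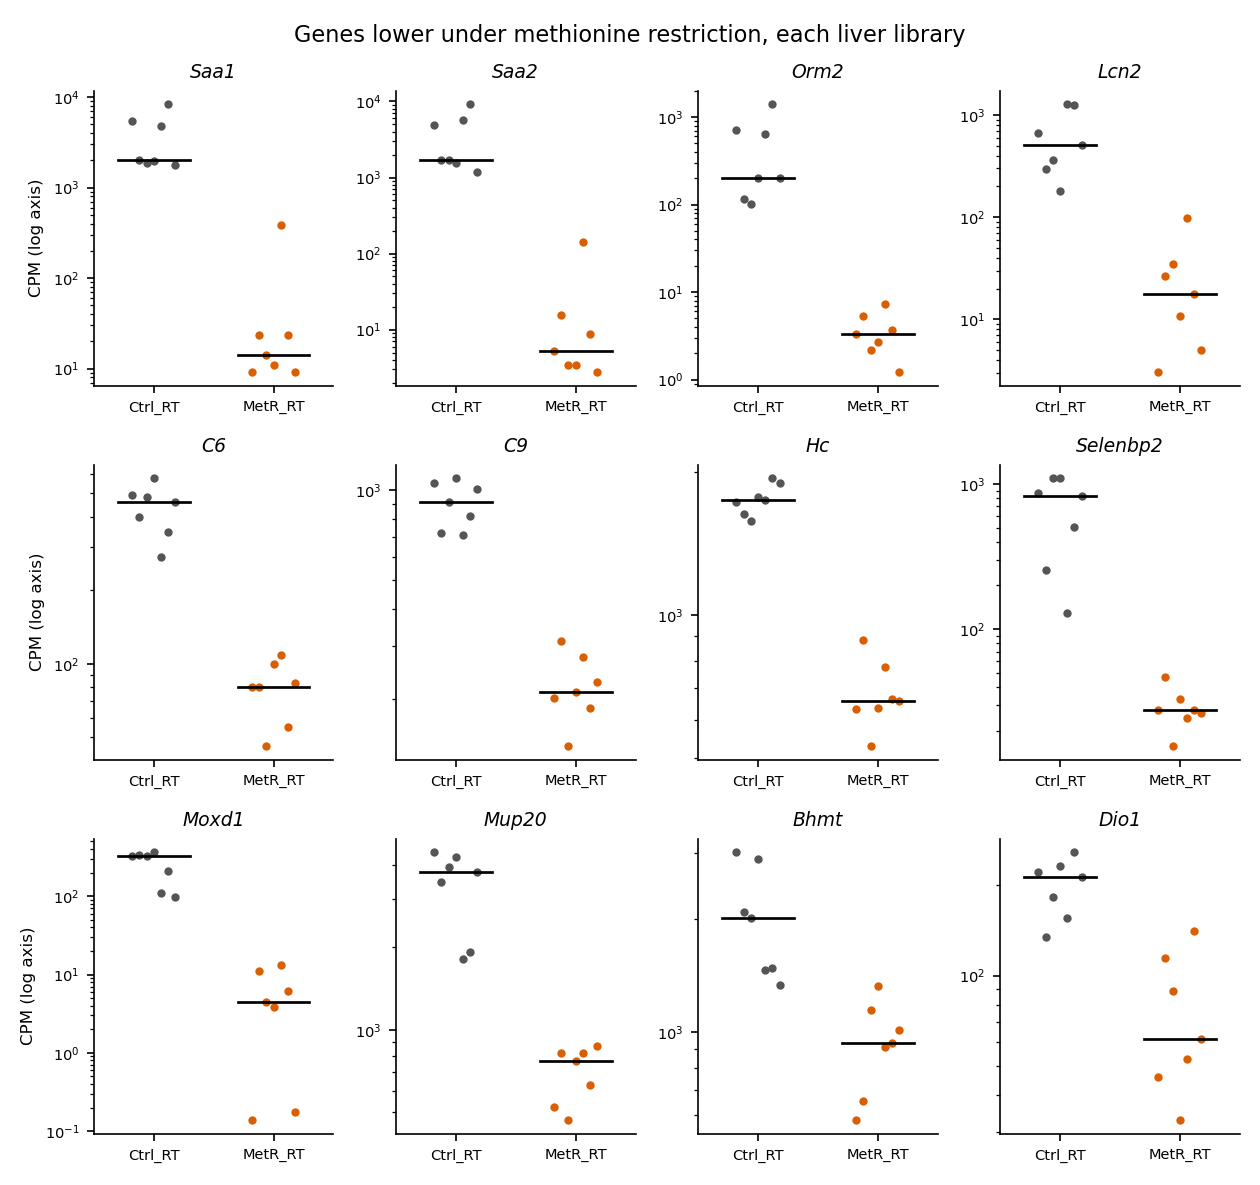
Normalized CPM of 12 genes in each of the 7 Ctrl_RT libraries (grey) and 7 MetR_RT libraries (orange), on log axes that do not start at 0, with the median as a bar. The groups overlap for Dio1 and stand apart for the other 11, and MetR_RT replicate 5 is the highest of its group for Saa1, at 385 CPM, and for Saa2, at 143 CPM.

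Many genes that male livers express above female livers fell, and some of the opposite bias rose. Of 26 male-biased genes 18 were called down and 0 up (69.2% down), with a median log2 fold change of -1.10. Of 25 female-biased genes 10 were called up and 0 down (40.0% up), with a median of 1.18. The 10 include Cyp2a4, whose reads can be mixed up with those of Cyp2a5, and Acot3, also in the fatty acid oxidation list. All samples were from males. Selenbp2, a selenium-binding protein, ran from 128 to 1099 CPM in Ctrl_RT (median 829) and from 15.6 to 47.2 CPM in MetR_RT (median 27.6), without overlap (-4.56 ± 0.53, adjusted p = 2.8e-07). Moxd1, a monooxygenase-like protein, fell from a median of 323 to 4.41 CPM (-5.46 ± 0.82, adjusted p = 1.32e-05), and Ugt2b38, a glucuronosyltransferase, from 25.1 to 2.74 CPM (-3.12 ± 0.41, adjusted p = 1.88e-06). C6, C8a and C8b stand in this list as well as in that of complement, and Mup3, Mup20 and Mup21 in that of major urinary proteins. Cyp2f2 and Mup20 are also in the list of the portal zone, and Gstp1 and Gstp2 in that of glutathione. Other lists share members too, so their counts are not separate results.

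Not all male-biased genes moved. Cyp2d9 had -0.04 ± 0.23 (adjusted p = 0.932), with 1030.2 to 1596 CPM in Ctrl_RT and 717 to 1821 CPM in MetR_RT, and Hsd3b5, a steroid dehydrogenase, had -0.55 ± 0.31 (adjusted p = 0.254). On the female side Prlr, the prolactin receptor, rose from a median of 42.5 to 88.7 CPM (1.11 ± 0.25, adjusted p = 0.00167). Cyp17a1, a steroid hydroxylase, rose from 12.4 to 30.2 CPM (1.84 ± 0.39, adjusted p = 0.00106), and Tox, a nuclear protein, from 1.66 to 4.12 CPM (1.06 ± 0.16, adjusted p = 1.32e-05). The groups overlapped for Prlr, Cyp17a1 and Tox. Cyp17a1 ran from 6.84 to 28.4 CPM in Ctrl_RT and from 5.50 to 128 CPM in MetR_RT. All MetR_RT libraries stood above all Ctrl_RT libraries for 3 of the 25 female-biased genes, against 2.99% of all genes tested. Summed over the list, the female-biased genes went from 65.2 to 179 CPM to 139 to 369 CPM and the male-biased genes from 23386 to 37458 CPM to 9222 to 17628 CPM.

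Major urinary proteins, pheromone carriers that male liver makes in bulk, fell for 18 of 22 genes and rose for 0 (81.8% down), with a median log2 fold change of -1.72. Mup20 ran from 1811 to 4452 CPM (median 3766) and from 468 to 877 CPM (median 772), without overlap (-2.26 ± 0.31, adjusted p = 4.63e-06). Many of the other members are near-identical copies, so values such as those of Mup16 (-2.37 ± 0.39) and Mup11 (-1.92 ± 0.33) are uncertain for the single gene. The sum over the family does not depend on that split within it. It was 15684 to 25205 CPM in Ctrl_RT (median 20332) and 6815 to 11785 CPM in MetR_RT (median 8621). Mup2 was not called and had a positive value, 0.56 ± 0.22 (adjusted p = 0.0774).

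Growth hormone and IGF1 genes were split, with 4 of 24 up and 3 down (16.7% and 12.5%) and a median of 0.01. Ghr, the growth hormone receptor, had -0.25 ± 0.10 (adjusted p = 0.0645), and Igf1, its main product in liver, -0.33 ± 0.10 (adjusted p = 0.0154), so neither was called. Egfr, the epidermal growth factor receptor, fell from a median of 1055 to 623 CPM (-0.90 ± 0.18, adjusted p = 0.000531). Dio1, the deiodinase that makes active thyroid hormone, fell from a median of 213 to 61.4 CPM (-1.38 ± 0.21, adjusted p = 1.75e-05), with overlap. Lepr, the leptin receptor, rose from 1.03 to 6.37 CPM (median 2.80) to 7.48 to 25.6 CPM (median 13.2), without overlap (2.31 ± 0.50, adjusted p = 0.00108). Klb, the coreceptor of FGF21, rose from a median of 20.3 to 40.1 CPM (0.81 ± 0.13, adjusted p = 5.74e-05).

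Genes of endoplasmic reticulum chaperones and the unfolded protein response fell for 7 of 25 and rose for 0 (28% down), and 4 of the 7 kept their call when each library was left out in turn. Sdf2l1, a chaperone partner, ran from 68.3 to 201 CPM and from 22.1 to 83.6 CPM (-1.38 ± 0.28, adjusted p = 0.00064). Creld2, a disulfide isomerase, fell by 1.18 ± 0.28 on the log2 scale (adjusted p = 0.00302) and Xbp1, the transcription factor of this response, by 0.71 ± 0.15 (adjusted p = 0.000689). The main chaperones were not called, at -0.39 ± 0.16 for Hspa5 (adjusted p = 0.0899) and -0.39 ± 0.15 for Hsp90b1 (adjusted p = 0.0611). The members that fell are secretory chaperones and their regulator. ATF4 targets of the integrated stress response list had moved in the opposite direction.

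Cytosolic ribosomal proteins moved together by a small step. Of 79, 78 had positive log2 fold changes, with a median of 0.29, and 67 had an adjusted p under 0.05 but less than 1.5-fold. Of all 22143 genes tested, 11193 had positive values and 4157 an adjusted p under 0.05 at any fold, 1529 of them called. Rpl12 was the gene called (0.67 ± 0.08, adjusted p = 1.18e-06). Of 13 mitochondrially encoded genes, 0 were called, and 3 had an adjusted p under 0.05 with a smaller fold. Proliferation genes had 3 of 30 down, and 0 of these calls held in every leave-out. Cdkn1a, the cell cycle inhibitor p21, ran from 4.13 to 90 CPM and from 1.24 to 16.2 CPM (-1.83 ± 0.56, adjusted p = 0.0203), a call lost without Ctrl_RT replicate 1 (-0.91, adjusted p = 0.223).

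Of 19 clock genes 5 were called up and 0 down (26.3% up), of which 2 kept their call in every leave-out. Nr1d2, a REV-ERB repressor, ran from 21.5 to 80.3 CPM in Ctrl_RT (median 60.4) and from 86.4 to 113 CPM in MetR_RT (median 99.9), without overlap (0.79 ± 0.15, adjusted p = 0.000209). Per3 rose from a median of 5.47 to 18.6 CPM (1.29 ± 0.35, adjusted p = 0.00872). Nr1d1, the other REV-ERB repressor, rose by 0.72 ± 0.21 (adjusted p = 0.0146) and went below 1.5-fold without Ctrl_RT replicate 1 (0.54), the lowest library of its group. The activators Arntl (-0.31 ± 0.29, adjusted p = 0.527) and Clock (-0.15 ± 0.09, adjusted p = 0.298) were not called. The study's methods place all collections in the same morning window of the light phase. The hour of each liver is not in the labels, and its part in this result was not tested.

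Genes that mark the zones of the lobule differed in their counts. Of 20 genes of the zone near the central vein 0 rose and 1 fell (5.0% down). Of 20 near the portal vein 3 rose and 5 fell (15.0% and 25.0%), with a median of 0.05 from members that went both ways. Glul, glutamine synthetase of the cells around the central vein, ran from 1013 to 1179.5 CPM and from 1033 to 1312 CPM (0.03 ± 0.06, adjusted p = 0.842). Cyp2e1 of the central zone had 0.48 ± 0.12 (adjusted p = 0.00371), under the fold limit. Of the portal genes, Cyp2f2 fell from a median of 1479.8 to 806 CPM (-0.79 ± 0.12, adjusted p = 2.78e-05) and Etnppl, which breaks down phosphoethanolamine, rose from 75.8 to 193 CPM (1.47 ± 0.22, adjusted p = 1.33e-05).

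The same diets were compared in the cold, in MetR_CE and Ctrl_CE livers that share no library with the room temperature groups. There 258 genes rose (1.17% of those tested) and 907 fell (4.1%). Of the 638 genes that rose at room temperature, 515 (80.7%) had a positive log2 fold change in the cold and 125 (19.6%) were called up. Of the 891 that fell, 780 (87.5%) had a negative value and 328 (36.8%) were called down. The genes were selected on the room temperature difference, which favours larger values there. Ctrl_CE replicate 4 stood apart from its group (median r of 0.954 with the others), and without it 125 of 638 and 298 of 888 were called in the same direction.

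A diet difference that itself differed between the temperatures, by the interaction in edgeR and the same thresholds, was called for 234 genes (1.06% of those tested), and for 401 without Ctrl_CE replicate 4. Among the genes called at room temperature, a selection that favours an interaction, these were 90 of 638 rises and 48 of 891 falls. The glutathione transferases and Cyp2a5 were among them. Gstm1 had a log2 fold change of 2.38 at room temperature and 1.01 in the cold (interaction adjusted p = 0.000997). In the cold its median was higher under the control diet, at 647 CPM against 409 CPM at room temperature, and 1343 CPM under restriction. Cyp2a5 had 2.77 and 1.41 (interaction adjusted p = 0.000786), and its Ctrl_CE median was 442 CPM against 159 CPM in Ctrl_RT.

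Me1 and Elovl6 rose at room temperature and had negative values in the cold, -0.40 ± 0.28 and -0.69 ± 0.30, neither called there (interaction adjusted p = 0.0116 and 0.0171). Of the 28 lipogenesis genes, 8 were called down in the cold and 0 up, against 4.1% of all genes called down there. Without Ctrl_CE replicate 4 these were 10 and 0. The interaction was called for 3 of the list, and for 10 without that library. Bhmt, which fell at room temperature, had 0.11 ± 0.18 in the cold (interaction adjusted p = 0.00937). Sdf2l1 and Creld2 fell at room temperature and had 0.53 ± 0.28 and 0.51 ± 0.28 in the cold (interaction adjusted p = 0.0116 and 0.0261). Selenbp2 had -4.56 at room temperature and -1.16 ± 0.49 in the cold, where the Ctrl_CE median was already 36.2 CPM (interaction adjusted p = 0.00908). Without Ctrl_CE replicate 4 the cold value was -1.37 (adjusted p = 0.0447).

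Several genes of other groups had no called interaction. Phgdh had 5.18 and 3.68 ± 0.42 (interaction adjusted p = 0.279), Psat1 3.23 and 2.28 ± 0.24 (0.153), Asns 2.00 and 1.61 ± 0.20 (0.534) and Pck2 2.75 and 2.51 ± 0.25 (0.793). Vldlr, of the same stress response list, did have a called interaction, with 3.36 and 1.58 ± 0.18 (adjusted p = 0.00174). The SE of these interactions is large enough that such a p does not show equal responses. In the cold all 12 Kupffer cell markers were called down. This count was 12 without Ctrl_CE replicate 4 too. Of the acute phase list 21 members were called down there, but 13 without that library, in which the list summed to 137940 CPM against 27901 to 51304 CPM in the other 6 Ctrl_CE libraries. Called interactions in this list were 2 with all libraries, Serpina3k and Hamp2, and 12 without it. Saa1 had -8.49 in the cold and -7.32 without Ctrl_CE replicate 4, and Orm2 -7.32 and -5.99 (interaction adjusted p = 0.276 and 0.948 with all libraries, and 0.53 and 0.682 without it). C9 had -1.75 ± 0.16 in the cold and C6 -1.82 ± 0.20 (interaction adjusted p = 0.576 and 0.237), and of the terminal components Hc had an interaction adjusted p of 0.178, or 0.0161 without Ctrl_CE replicate 4 at less than 1.5-fold.

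**Figure D5:**
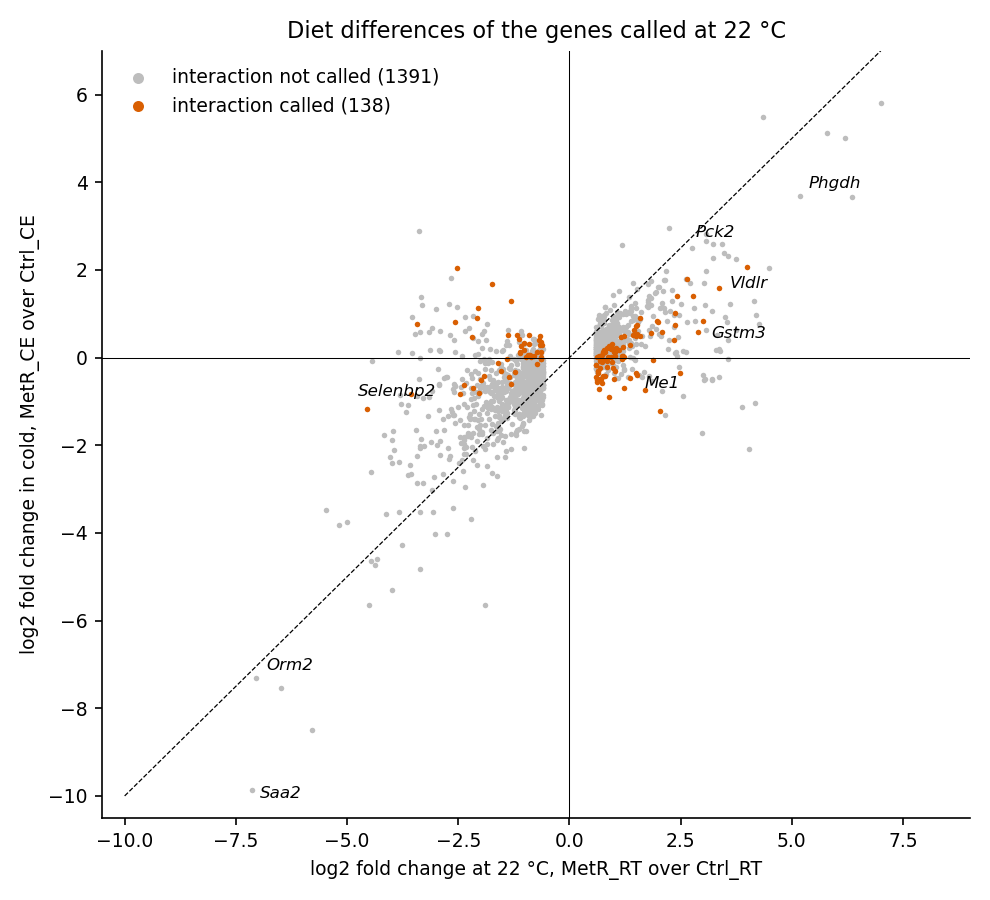
Each point is a gene called at 22 °C, with the log2 fold change of MetR_RT over Ctrl_RT on the horizontal axis and of MetR_CE over Ctrl_CE on the vertical axis. Orange marks the 138 genes with a called interaction and the dashed line marks equal values. The orange genes lie between the line and the horizontal axis or beyond that axis, as all 138 have an interaction opposite in sign to their room temperature difference. Selection of genes on the room temperature difference favours that sign.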

How the data were processed

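PolyA-selected RNA of 28 livers was sequenced, and the authors deposited unnormalized whole-number counts per gene, aligned to mm10. The submitters' processing notes name STAR 2.7.9a, featureCounts 2.0.3 and Salmon 1.9.0. Both of the last can give such a table, and which made it is unclear. Columns were matched to titles by library number, and 0 were left unused. Of 56884 gene identifiers, 51948 were named from GENCODE M21, whose identifier versions mostly differ from those of the table.

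Genes with at least 10 counts over the 28 liver libraries (22143) were fitted in edgeR 4.0.16 (R 4.3.3), with TMM factors and diet, temperature and their interaction. Adjusted p are Benjamini-Hochberg values over all genes tested, and an SE is the size of the log2 fold change divided by the square root of F. Levels are normalized CPM, which carry no gene length, so levels were not compared between genes. DESeq2 1.42.0 and apeglm 1.24.0 were alternatives, beside RLE factors, other filters, the 14 libraries alone, a replicate block, glmTreat and each library left out. On simulated counts (21248 genes tested), 72.0% of 1.5-fold and 92.0% of 2-fold changes were recovered at an adjusted p under 0.05, with 5 false calls. The simulation left out the 1.5-fold limit and changed only genes of at least 1 CPM. Its spread followed the trend with level and not each gene, so these are not rates for the calls given here.

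Genes named are the 12 largest rises and 12 largest falls among named genes of at least 5 CPM, the 3 with the smallest p in each direction, and, per list, some of the called members with the smallest p and some uncalled members standing early in the list. Members and lists were chosen with earlier results of these data known. Omitting Ctrl_CE replicate 4, and omitting the shallowest and deepest MetR_RT libraries, were added after the data were seen.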

Additional observations from a re-analysis of the deposited data

Results flagged for a closer look

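Each gene named was looked at for a library far from the other 6 of its group, by Dixon's gap ratio. Of 258 groups 11 had such a library, and chance gives about 1 in 20. Among the genes higher under restriction, Nupr1 stood at 14.8 CPM in MetR_RT replicate 1 and Phgdh at 4.66 CPM in MetR_RT replicate 7. Me1 stood at 408 CPM in Ctrl_RT replicate 5, and Etnppl at 28.2 CPM in Ctrl_RT replicate 6. The REV-ERB genes Nr1d2 (21.5 CPM) and Nr1d1 (24.7 CPM) were both lowest in Ctrl_RT replicate 1. Among genes lower under restriction, Saa1 stood at 385 CPM in MetR_RT replicate 5 and Prtn3 at 0.723 CPM in MetR_RT replicate 2, each the highest of its group. Saa4 (70.8 CPM) and Egfr (304 CPM) were lowest in MetR_RT replicate 3. Cyp7a1 was at 2.07 CPM in Ctrl_RT replicate 7.

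For 23 of the genes named, the diet difference itself differed between cold and room temperature by the interaction in edgeR. Values are the log2 difference in the cold minus that at room temperature, and every one opposes the room temperature difference. Most named genes were selected on the room temperature difference, which enters these values with the opposite sign, so this direction was favoured. Among transferases and xenobiotic genes they were -1.92 for Gsta2, -0.84 for Gsta3, -1.36 for Gstm1, -1.01 for Gstm2, -2.17 for Gstm3, -0.99 for Gstm4, -0.81 for Aox1, -0.78 for Pir, -1.36 for Cyp2a5, -0.98 for Abcc4, -0.85 for Ces1b and 2.72 for Ces4a. Among amino acid and lipid genes they were -1.79 for Vldlr, -0.78 for Slc3a2, 1.23 for Bhmt, -1.91 for Me1 and -1.91 for Elovl6. Among secretory genes they were 1.91 for Sdf2l1, 1.69 for Creld2 and 0.84 for Hsp90b1, with 0.72 for Serpina3k, -1.94 for Hamp2 and 3.40 for Selenbp2.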

How the results depend on the processing

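Of 99 called genes named here, 93 kept their call under all alternatives other than glmTreat, which tests against 1.5-fold and left 33 uncalled. The other 6 were Gnmt, Mat1a, Acaca, Cyp4a14, Nr1d1 and Cdkn1a. glmTreat called 124 genes up and 195 down, because it asks for more than a difference from 0. Numbers called when each library was left out ran from 531 to 699 up and from 803 to 950 down. Other edgeR settings and DESeq2 gave 453 to 652 up and 709 to 999 down, all within 1.5 times the main counts given here. The study's own counts for this contrast, at the same thresholds, were lower in each direction than all of these except glmTreat's. The reason for that gap was not tested. Of the called genes, 373 of the 638 rises and 598 of the 891 falls were called in every leave-out. Without Ctrl_CE replicate 4 the interaction was called for 401 genes in place of 234. The cause was not tested.

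Replicate numbers did not pair the libraries: deviations from the group means of same-numbered libraries correlated between -0.125 and 0.0793. With a replicate block 606 genes were called up and 861 down, and no called gene named here lost its call. Among uncalled genes, signs changed for values near 0. Leaving libraries out moved the log2 fold change of Atf3 between -0.48 and 0.11, Srebf1 between -0.10 and 0.30, Cyp2d9 between -0.16 and 0.049, Glul between -0.021 and 0.041 and Cyp7a1 between -0.24 and 0.44. Cyp7a1 was 0.14 with the replicate block and 0.052 without the shallowest and deepest MetR_RT libraries. That last setting ended the calls of Cyp4a14 (2.14, adjusted p = 0.0634), Nr1d1 (0.64, adjusted p = 0.0618) and Cdkn1a (-1.45, adjusted p = 0.0929) and brought Atf4 past the fold limit (0.59). By list, serine and folate enzymes gained 1 fall under RLE factors, DESeq2 and the 14 libraries alone, and 2 clock genes in place of 5 were called up with the 14 libraries alone. The depth of MetR_RT replicate 1 limits genes with few reads, such as Slc7a11.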
